A study of Mus musculus with 2 samples.

Results

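Non-cycling luminal cells in which milk gene transcripts made up 15-35% of all transcripts were described in mammary glands of Ehf knockout and wild type mice. Ehf is a transcription factor of the Ets family found in epithelia. The cells numbered 837 of the 18533 deposited barcodes, 60 in the Ehf knockout library and 777 in the wild type library. Each cell had to hold at least 1000 unique molecular identifiers (UMIs, 1 per captured transcript), at least 500 genes and at most 20% mitochondrial UMIs. Its 6 luminal genes (Krt8, Krt18, Krt7, Krt19, Cldn3 and Cldn4) had to sum to at least 3 UMIs and to more than its 6 basal genes (Krt14, Krt5, Krt17, Acta2, Myh11 and Mylk). Fewer than 3 of 7 hormone-sensing genes could be detected, and 8 cell cycle genes had to sum to fewer than 3 UMIs. The milk share, the percentage of a cell's UMIs that came from Csn1s1, Csn1s2a, Csn2, Csn3, Wap, Lalba and Glycam1, then had to be at least 15 and under 35. These measured values chose the cells, so the milk sum, the keratins and the cell cycle genes are given below as a description only.

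Both libraries were made from mammary cells sorted as Ter119-CD31-CD45- at 18.5 days of pregnancy and sequenced with 10x Chromium 3' V3 chemistry. The first came from mice of the strain labelled EhfKO and the other from wild type mice, and each pooled the thoracic and inguinal glands of 2 females. With 1 library per genotype no test between genotypes was possible, so differences are given by size with 95% intervals that cover counting error only. PCR duplicates are removed by UMIs, but cells of a library are not replicates, and animal, library and genotype cannot be told apart.

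Alveolar cells of the mammary gland build up milk protein, lipid and lactose synthesis in the last days of pregnancy, under prolactin acting through Stat5 and with the Ets factor Elf5. Caseins and whey proteins pass through the endoplasmic reticulum and Golgi, while lipid droplets leave the cell wrapped in membrane that carries butyrophilin and xanthine dehydrogenase. The milk share of a cell is a reading of how far its transcripts are given over to that product.

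Promoter sequence is shown for 4 milk genes that mark the pattern described below: Glycam1, whose share of the milk transcripts differed most between the libraries, the caseins Csn1s2a and Csn2, whose shares were larger in the knockout, and Wap, whose share over the whole window was nearly the same. Each runs from 250 bases before to 50 bases after the annotated start (RefSeq, GRCm38.p6). Capitals mark matches on either strand, 9 letters long for TTCNNNGAA, the Stat5 type motif, and 5 letters long for GGAAG, a form of the Ets type motif.
Glycam1, chr15:103565032-103565331, minus strand: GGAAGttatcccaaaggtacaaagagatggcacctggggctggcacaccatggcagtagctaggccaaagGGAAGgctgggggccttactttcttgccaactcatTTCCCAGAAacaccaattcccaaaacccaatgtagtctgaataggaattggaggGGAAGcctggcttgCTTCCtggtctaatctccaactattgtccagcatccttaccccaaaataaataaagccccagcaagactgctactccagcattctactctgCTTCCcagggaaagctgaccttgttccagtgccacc
Csn1s2a, chr5:87774200-87774499, plus strand: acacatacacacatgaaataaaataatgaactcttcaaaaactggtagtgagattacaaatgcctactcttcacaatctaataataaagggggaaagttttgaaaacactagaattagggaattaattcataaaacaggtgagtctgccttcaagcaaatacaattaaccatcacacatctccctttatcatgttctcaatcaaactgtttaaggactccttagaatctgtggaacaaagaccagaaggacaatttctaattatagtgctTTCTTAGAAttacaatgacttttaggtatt
Csn2, chr5:87699376-87699675, minus strand: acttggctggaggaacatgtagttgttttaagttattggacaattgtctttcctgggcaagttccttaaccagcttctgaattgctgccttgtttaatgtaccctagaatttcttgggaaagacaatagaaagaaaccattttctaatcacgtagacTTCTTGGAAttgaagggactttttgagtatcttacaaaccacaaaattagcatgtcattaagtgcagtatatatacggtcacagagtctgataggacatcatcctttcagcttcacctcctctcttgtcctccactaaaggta
Wap, chr11:6638600-6638899, minus strand: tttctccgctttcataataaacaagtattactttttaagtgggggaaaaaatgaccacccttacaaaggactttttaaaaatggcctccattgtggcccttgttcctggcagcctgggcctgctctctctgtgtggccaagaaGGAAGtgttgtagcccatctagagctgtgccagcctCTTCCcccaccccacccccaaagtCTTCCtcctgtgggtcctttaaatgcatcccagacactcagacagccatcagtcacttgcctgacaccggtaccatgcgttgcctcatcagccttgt
TTCNNNGAA was found in 8.47% and GGAAG in 71.1% of 27025 mouse promoters of this length. The Glycam1 promoter held 5 matches to GGAAG, a number reached in 2.06% of promoters, and 1 match to TTCNNNGAA that began 145 bases before the start. The promoters of Csn2, Csn1s2a and Csn1s1 held no GGAAG and 1 TTCNNNGAA each. This match began 93 bases before the start in Csn2, 100 before it in Csn1s1 and 20 after it in Csn1s2a. The promoter of Wap held 3 GGAAG and no TTCNNNGAA, and that of Lalba 2 and 0. The printed Csn2 and Csn1s2a promoters do hold the shorter GGAA, which was not counted. The matches are letters in a window and were not tested for binding. The table used had no entry for Csn3.

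In the knockout library the cells were 60 of 430 non-cycling luminal cells, or 13.95% (exact Clopper-Pearson 95% interval 10.8 to 17.6). In the wild type library they were 777 of 1976, or 39.3% (37.2 to 41.5). Knockout cells lay towards the lower edge: 27, 14, 7 and 12 cells fell in the steps of 15-20%, 20-25%, 25-30% and 30-35%, against 102, 149, 224 and 302 wild type cells. Most other knockout luminal cells lay below, with 251 under 5%, 111 at 5-15% and only 8 at 35% or more. Most other wild type cells lay above, with 103, 120 and 976 in the same 3 classes. Because the position inside the window differed, the milk genes and some other single genes were also read within the 5-point steps. Lists of genes were not read by step, but were read again with wild type cells weighted to the knockout's milk shares.

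The median cell held 11324.5 UMIs in the knockout (1014 to 72147) and 7167 in the wild type (1133 to 44411). The largest knockout cell gave 8.66% of the window's 833555 UMIs, while the largest wild type cell gave 0.687% of 6465948, so single cells weigh more in the knockout sums. Mitochondrial UMIs had medians of 6.19% and 5.76%. The libraries shared 25 barcode sequences, of which 0 were in the knockout window and 1 in the wild type window. Scrublet, a doublet caller, marked 2 of the 777 wild type cells. Its automatic threshold called 0 of 6561 knockout cells and so had not worked there, and the wild type threshold called 0 of the 60.

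The cells carried the alveolar markers given for them. Csn2, Csn1s2a and Csn3, which the choice of cells used, were found in all 60 knockout cells and in all 777 wild type cells. Wfdc18, a secreted whey-acidic-protein family member outside the rule, was found in 100% and 99.7%, against 41.7% and 56.3% of basal cells, whose median depths were 3698 and 2074 UMIs. After thinning to 2000 UMIs these shares were 100% and 99.7% in the window and 25.0% and 53.2% in basal cells. Btn1a1, the butyrophilin of the milk fat globule membrane, was found in 88.3% and 94.7% (basal cells 1.79% and 9.94%). Thinned, Btn1a1 was found in 46.6% and 78.4% (basal cells 0.891% and 9.58%). Thinning left out 2 knockout and 27 wild type cells of the window, and 194 and 2952 basal cells.

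At the lower edge, the 14 knockout cells at 13-15% gave 6.17% of their UMIs to Csn2 and the 15 at 15-17% gave 6.83%. For the wild type these were 5.596% in 39 cells and 6.45% in 31. At the upper edge the knockout values were 12.7% in 6 cells at 33-35% and 13.02% in 4 cells at 35-37%, and the wild type values 10.9% in 129 and 11.7% in 139. Csn2 is part of the sum that sets the edges, so its climb was fixed by the choice of cells. Wfdc18, outside that sum, went from 2.39% to 3.18% of UMIs across the lower edge and from 2.97% to 4.48% across the upper edge in the knockout, against 1.29% to 1.72% and 1.52% to 1.55% in the wild type.

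The basal and hormone-sensing markers overlap the genes used to choose the cells, so their levels are a description. Levels here are scaled CPM, that is CPM over the UMIs outside the 7 milk genes, with the knockout scaled so that the median gene had a ratio of 1. The 12 basal markers summed to 426 in the knockout against 403 in the wild type, and the 11 hormone-sensing markers to 112 and 150. The 14 immune markers summed to 39.0 and 142, with 12 at 0 in the knockout against 3 in the wild type, and the 10 endothelial markers to 4.87 and 62.5, with 8 and 1 at 0. S100a8 alone gave 35.7 and 91.4 of the immune sums, and Fabp4 1.62 and 53.0 of the endothelial sums. The knockout sums rest on far fewer UMIs, so numbers of markers at 0 cannot be compared between the libraries. All 7 adipocyte markers were at 0 in the knockout, and 4 were at 0 in the wild type. The 10 fibroblast markers summed to 9.75 and 11.4, and the 5 measured erythroid markers to 6.50 and 1.72.

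Ehf itself (chr2:103263431-103303275) was lower in the knockout library and was still detected there. The knockout cells held 43 Ehf UMIs, a level of 69.9 scaled CPM (50.6 to 94.1), and the wild type cells 951, a level of 205 (192 to 218). The log2 ratio of knockout over wild type was -1.55 (-2.03 to -1.11). Over the 4 steps of milk share from 15-20% upwards the level was 84.6, 75.7, 52.8 and 45.6 in the knockout, against 270, 241, 218 and 164 in the wild type. The knockout lay below the wild type at each step, and in the wild type the level was lower at a higher milk share. The knockout levels rested on 22, 10, 6 and 5 UMIs, too few to read a trend within that library. Ehf was found in 25 of 60 knockout cells (41.7%) and in 60.1% of the wild type, and after thinning in 12.1% and 26.4%. Basal cells had it in 1.63% and 3.84% before and 0.594% and 2.55% after thinning. The chemistry reads 3' ends and the deleted part of the gene was not given in the sources used here, so these UMIs do not check the deletion.

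The milk transcripts of the knockout cells were divided among the 7 genes in another way, with much less Glycam1 and larger parts of Csn1s2a, Csn2 and Csn3. Glycam1 encodes a small mucin-like glycoprotein made by milk-producing cells. It was 1.91% of milk UMIs in the knockout (3726 of 195208) and 13.1% in the wild type (238308 of 1824806). Over cells the lowest, median and highest share was 0, 0.042 and 11.7% in the knockout, against 0, 12.8 and 35.2% in the wild type. The ranges overlapped, yet all 60 knockout cells were below the wild type median and 51 were below its 5th percentile of 3.04%. The share was under 1% in 44 knockout cells, 1-5% in 10 and over 5% in 6, against 16 wild type cells under 1% and 691 over 5%. The log2 ratio of the 2 shares was -2.77 (-2.82 to -2.73), and the 5 knockout cells with the most Glycam1 held 62.6% of its UMIs.

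**Figure D1:**
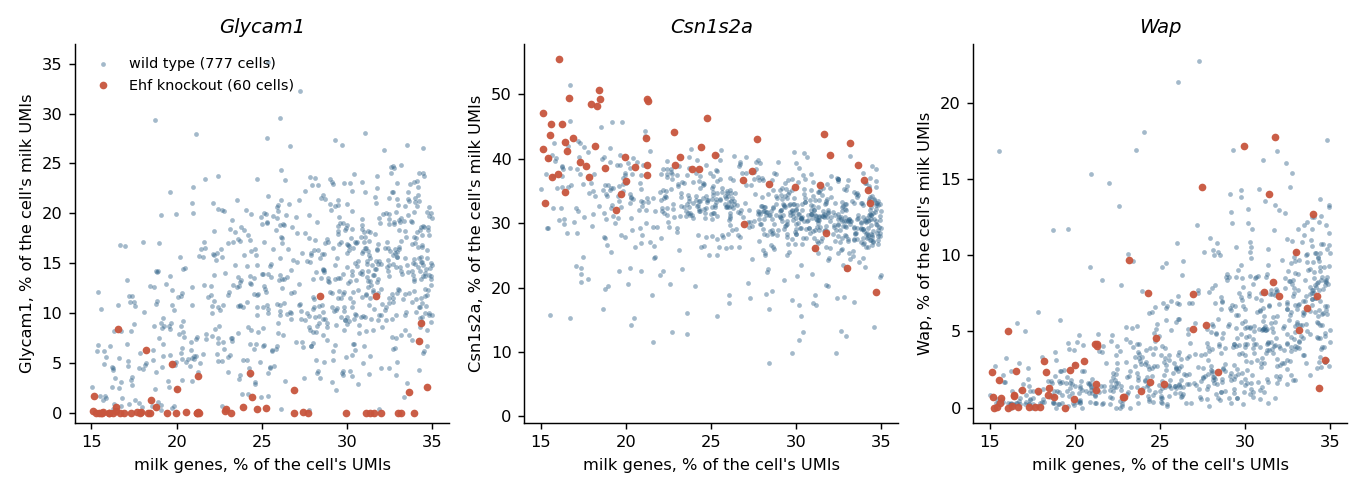
Share of Glycam1, Csn1s2a and Wap in each cell's milk UMIs (y axes, %) against the milk share of the cell (x axes, % of all UMIs), 1 point per cell, for 60 Ehf knockout and 777 wild type cells. Knockout cells lie along the bottom for Glycam1 (median 0.042% against 12.8%), in the upper part of the wild type cloud for Csn1s2a, and within it for Wap.

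The lower Glycam1 share was seen at every step of milk share. It was 1.10, 0.999, 2.24 and 3.10% in the knockout from 15-20% to 30-35%, and 7.43, 10.9, 13.3 and 14.1% in the wild type. With wild type cells weighted to the knockout's milk shares the wild type value was 11.3%. Glycam1 was detected in 31 of 60 knockout cells (51.7%) and in 99.9% of the wild type, and after thinning in 41.4% and 99.9%. In basal cells it was found in 3.46% and 90.3% (thinned 1.82% and 87.4%), and the source of these basal UMIs was not tested. Its level in wild type basal cells was 7679 scaled CPM, against 51347 in the wild type window. Both levels are summed over cells. Milk genes took 5.04% of the summed UMIs of wild type basal cells, but a median of 1.01% per cell, with a highest value of 50.7%. Subtraction of free RNA, set so that it accounts for all milk RNA of basal cells, gave 1.92% and 12.8% of milk UMIs.

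The caseins were not shifted alike. Csn1s2a, a calcium-sensitive casein, was 38.8% of milk UMIs in the knockout against 31.2% in the wild type, with cell values of 19.3, 39.2 and 55.5% against 8.26, 31.7 and 51.4% (lowest, median, highest). Of the 60 knockout cells 29 lay above the wild type 95th percentile and 1 below the 5th. Csn2, the beta-casein gene, was 39.1% and 33.4%, with 9 knockout cells above the 95th percentile, and Csn3, the kappa-casein that stabilises micelles, was 5.34% and 4.08%, with 18 above. Csn1s1, the alpha-s1 casein, went the other way at 9.45% and 12.5%. Its cell values were 1.16, 9.42 and 17.97% in the knockout, against 5.03, 12.5 and 21.6% in the wild type, and 29 knockout cells lay below the wild type 5th percentile. These shares are parts of 1 sum, so a lower part of 1 gene raises the others, and log2 ratios of the shares were 0.32 for Csn1s2a, 0.23 for Csn2, 0.39 for Csn3 and -0.40 for Csn1s1. Relative to UMIs outside the milk genes (scaled CPM) the log2 ratios were 0.0052 for Csn1s2a, -0.085 for Csn2, 0.078 for Csn3, -0.71 for Csn1s1 and -3.08 for Glycam1, so on that scale the first 3 were within 1.5-fold.

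The Csn1s1 share moved with the milk share in opposite directions in the 2 libraries. From 15-20% to 30-35% it was 7.76, 8.78, 11.1 and 10.3% in the knockout, against 14.2, 12.97, 12.5 and 12.1% in the wild type. The gap was thus widest at the lower edge. Outside the window it was 6.32% at 5-15% and 10.3% at 35% and over in the knockout, and 16.1% and 11.6% in the wild type. Across cells of the window Pearson's r between the 2 shares was 0.36 over 60 knockout cells and -0.32 over 777 wild type cells, a description in which both axes share the cell's milk UMIs.

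Of the whey protein genes, Wap had nearly the same share over the whole window and Lalba a lower one in the knockout (log2 ratios of the shares -0.018 and -0.65). Wap was 4.84% of milk UMIs in the knockout against 4.91% in the wild type, with cell values of 0, 2.34 and 17.8% against 0, 3.81 and 22.7%, and 45 of 60 knockout cells lay between the wild type 5th and 95th percentiles. By step Wap was 1.19, 3.53, 6.30 and 8.27% in the knockout, against 1.44, 2.85, 4.25 and 6.20% in the wild type, so it was above the wild type in the 3 upper steps. Lalba, the alpha-lactalbumin subunit of lactose synthase, was 0.517% and 0.814%. Its steps were 0.093, 0.248, 0.779 and 0.925% against 0.647, 0.771, 0.849 and 0.828%, so the gap was widest under 25% and the order turned in the last step. Wap and Lalba had Pearson's r with the milk share of 0.68 and 0.55 over knockout cells, and 0.51 and 0.028 over wild type cells.

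Outside the 7 milk genes, 4714 genes had at least 100 UMIs over both libraries. Of these 425 (9.02%) were at least 1.5-fold higher in the knockout and 565 (12%) at least 1.5-fold lower, together 21%, and these sizes are what is called higher or lower below. By construction the median log2 ratio of all tested genes was 0. The intervals of 349 (7.4%) and 372 (7.89%) of the called genes also excluded 0. Lists of genes are given by their counts and medians beside these figures, and no list was tested.

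Genes for protein folding in the endoplasmic reticulum and for the unfolded protein response were higher in the UMIs summed over the knockout cells. Of 24 members with enough UMIs, 11 were called higher and 0 lower, against 9.02% and 12% of all genes, and the median log2 ratio was 0.38. Derl3, a component of endoplasmic-reticulum-associated degradation (chr10:75893398-75895941), had the highest ratio of the named genes. It held 85 UMIs in 20 of 60 knockout cells (138 scaled CPM) and 40 UMIs in 36 of 777 wild type cells (8.62), a log2 ratio of 4.00 (3.44 to 4.58). Thinned, it was found in 17.2% and 1.47% of cells, and basal cells had it in 0.967% and 0.463% (thinned 0.482% and 0.227%). By step the level was 158, 159, 79.2 and 128 in the knockout against 6.14, 2.20, 11.01 and 10.6 in the wild type.

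Other members were higher by less. The chaperone cofactor Sdf2l1 had a log2 ratio of 1.75 (1.40 to 2.10), the stress transcription factor Ddit3 1.69 (1.19 to 2.18), Herpud1 1.46 (1.10 to 1.81) and Creld2 1.34 (0.93 to 1.73). Hspa5, the main chaperone of the compartment, stood at 1732 scaled CPM against 984 (log2 0.82, 0.72 to 0.91), and Hsp90b1 at 1163 against 701 (0.73). Members within 1.5-fold included Xbp1 at 0.32, Calr at 0.23, Atf4 at -0.02, P4hb at -0.13 and Canx at -0.26. Over the 4 steps from 15-20% upwards Hspa5 was at 1.09, 1.25, 0.21 and 0.57, and Sdf2l1 at 2.68, 2.67, 0.79 and 1.12. Both ratios were thus larger under 25% than above it. At 25-30% their intervals were -0.05 to 0.47 and -0.40 to 1.82. Creld2 was highest at 20-25%, with 0.63 (-0.24 to 1.47) at 15-20% and 0.64 (-0.53 to 1.62) at 30-35%. Xbp1 was instead highest in the last step, at 0.30, 0.36, 0.28 and 0.75.

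The excess lay in a minority of knockout cells. The list took 0.247, 0.535 and 3.76% (lowest, median, highest) of a knockout cell's UMIs outside the milk genes and 0.079, 0.589 and 1.65% of a wild type cell's, so the knockout median was the lower one. Above the wild type 95th percentile of 0.966% lay 12 knockout cells, 7 of them above the highest wild type cell. Those 12 cells held 47.9% of the list's knockout UMIs and 19.5% of the UMIs outside milk genes, and 68 of the 85 Derl3 UMIs. They were picked by the list, so this is a description. Their depth was 2056 to 38581 UMIs with a median of 10777.5, their median milk share was 18.4%, and 8 of the 12 had no Glycam1 UMI, as had 29 of all 60. The plasma cell genes Jchain, Mzb1, Igha, Ighm and Ighg1, chosen after the values were seen, had 0 UMIs in both windows, which for each gene allows up to 5% of knockout and 0.386% of wild type cells with a UMI. The part of other cell types in the list's values was not tested.

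**Figure D2:**
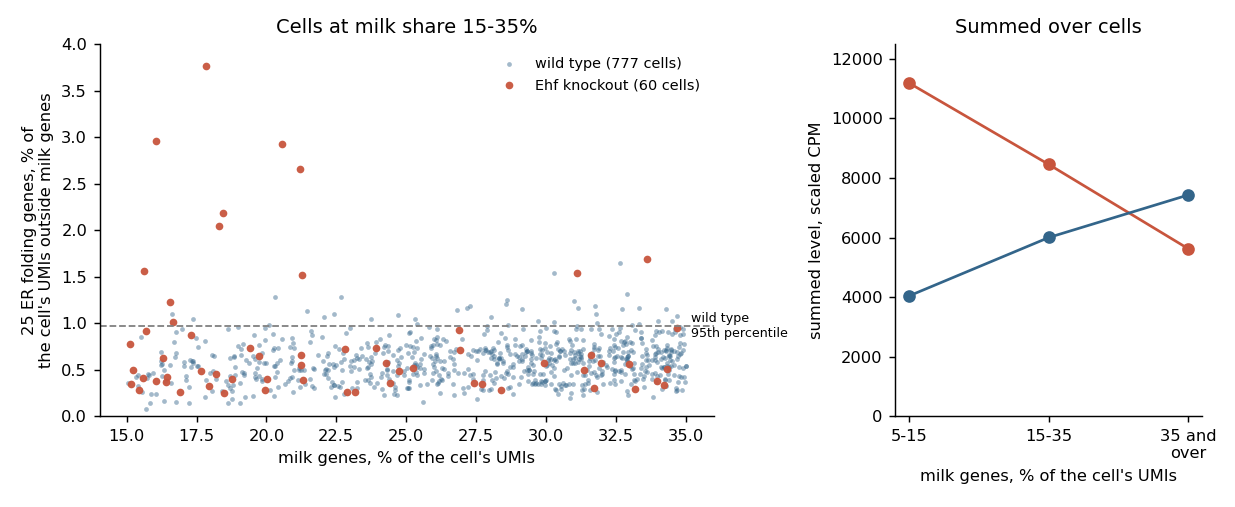
Left, share of the 25 endoplasmic reticulum (ER) folding genes in each cell's UMIs outside milk genes (y, %) against its milk share (x, %); the dashed line is the wild type 95th percentile, with 12 of 60 knockout cells above it. Right, summed level of the list in scaled CPM (y) at milk shares of 5-15%, 15-35% and 35% and over (x), with knockout in red and wild type in blue; the knockout falls from 11184 to 8454 and 5624 while the wild type rises from 4045 to 6003 and 7432.

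Along the milk share the list ran in opposite directions. In the wild type its summed level was 4045 scaled CPM at 5-15%, 6003 at 15-35% and 7432 at 35% and over. In the knockout it was 11184, 8454 and 5624, the last from only 8 cells. Between 5-15% and 15-35%, 10 of 23 wild type members were called higher in the upper window and 0 lower, where 15.7% and 9.95% of all genes tested were. In the knockout 1 of 24 was called higher and 6 lower, where 6.29% and 4.04% of genes were. Against 35% and over, 0 of 25 wild type members were higher at 15-35% and 3 lower, where 4.2% and 5.49% of genes were. In the knockout 6 of 14 were higher and 0 lower, where 10.1% and 13.2% were. Derl3 alone went from 1.61 to 8.62 and 27.6 in the wild type and from 198 to 138 and 14.7 in the knockout, the last from 1 UMI.

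Genes that carry nascent proteins into and through the secretory pathway were within 1.5-fold between the libraries for 26 of 34 members with enough UMIs. Of 34 members 0 were called higher and 8 lower in the knockout, where 9.02% and 12% of all genes were, with a median of -0.13. The lowest was Sec23b, a COPII coat subunit, at -1.28 (-1.85 to -0.76), followed by Sec13 at -0.88 and the translocon-associated Ssr1 at -0.78. In the wild type 25 of 34 members were higher at 15-35% than at 5-15% (median 0.89), where 15.7% of all genes tested were. In the knockout 1 of 31 was higher (median 0.13), where 6.29% of genes were. The difference between these 2 counts, and the part of depth and cell quality at 5-15% in it, were not tested.

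Of 16 fatty acid synthesis genes with enough UMIs 8 were called lower in the knockout, 7 were within 1.5-fold and 1 was called higher. Among all tested genes 12% were called lower and 9.02% higher. The list median was -0.58. The desaturase gene Scd2 stood at 35.8 scaled CPM in the knockout against 110 in the wild type, a log2 ratio of -1.62 (-2.31 to -1.01), Insig1 at -1.22 and the citrate carrier Slc25a1 at -0.85. Acaca and Acly, the enzymes that supply malonyl-CoA and acetyl-CoA, were at -0.60 and -0.59. Fasn at -0.01 and Scd1 at 0.05 had intervals that held 0. By step of milk share Fasn was at -0.07, 0.02, 0.16 and 0.83 (last interval 0.56 to 1.08). At 30-35% it was thus more than 1.5-fold higher in the knockout. Over the alternatives the list median ran from -0.63 to -0.24. Olah, the thioesterase that ends chains early to give the medium-chain fatty acids of milk, was the member called higher, at 671 against 275 (log2 1.29, 1.12 to 1.45), and was found in 83.3% and 66.7% of cells (thinned 58.6% and 33.3%; basal cells 1.58% and 5.96%, thinned 0.724% and 4.48%). The list's summed level was 4805 scaled CPM in the knockout against 4757 in the wild type.

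Genes for uptake of fatty acids and assembly of triglyceride gave 1 higher and 9 lower of 16, against 9.02% and 12% of all genes. The median was -0.63, and over the alternatives it ran from -0.75 to -0.27. Intervals of 6 of the 9 lower genes excluded 0. The list's summed level was 10373 scaled CPM in the knockout against 11248.5 in the wild type. Lpl, the lipase that releases fatty acids from circulating triglyceride, stood at 460 and 1043 scaled CPM (log2 -1.18, -1.36 to -1.01). By step Lpl was at -0.35 (-0.72 to 0.01), -0.63, -1.25 and -0.81. The acyl-CoA synthetase Acsl1 was at -0.70, Gpd1 at -0.81 and Lpin1 at -0.60, while Cd36 at -0.15 and Fabp3 at 0.10, with 7907 against 7400, were within 1.5-fold. Fabp4 had 1 UMI in the knockout and 246 in 4.12% of wild type cells (log2 -5.03, -10.34 to -2.54). Thinned, the wild type share was 1.47%, and wild type basal cells had Fabp4 in 3.36% (thinned 3.37%). With basal UMIs limited its log2 ratio was -2.0, from at most 1 knockout UMI. A count of 0 enters a ratio as 3 UMIs, so the size of this value cannot be read as a measured change. Fabp4 is an adipocyte and endothelial gene, and the cells were sorted as CD31-. The 7 adipocyte markers summed to 0 in the knockout against 0.646 scaled CPM in the wild type. Whether cells or RNA of those types gave the wild type UMIs was not tested.

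Among genes of the milk fat globule and lipid droplet, 0 of 9 were called higher and 3 lower, against 9.02% and 12% of all genes. The median was -0.22, and over the alternatives it ran from -0.53 to -0.07. Cidea, a lipid droplet protein that supports milk lipid secretion, was at 58.5 and 334 scaled CPM (log2 -2.52, -3.03 to -2.04). Btn1a1 was at 663 and 1599 (-1.27, -1.42 to -1.13) and Xdh, xanthine dehydrogenase, at 214 and 329 (-0.62, -0.88 to -0.36). By step Btn1a1 was at -1.43, -1.45, -0.42 and -1.08, and Xdh at -0.46, -1.09, -0.21 and -0.45. For Xdh only the interval at 20-25% excluded 0. Cidea was found in 12 of 60 and 51.6% of cells (thinned 1.72% and 28.9%), with basal cells at 0.143% and 4.54% (thinned 0.0928% and 4.00%). By step Cidea was 7.69, 15.1, 70.4 and 219 in the knockout, against 73.7, 161, 299 and 502 in the wild type, so its log2 ratio of -2.52 became -1.81 once milk shares were matched. The droplet coat gene Plin2 was at 0.25 and the transporter Abcg2 at 0.53.

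**Figure D3:**
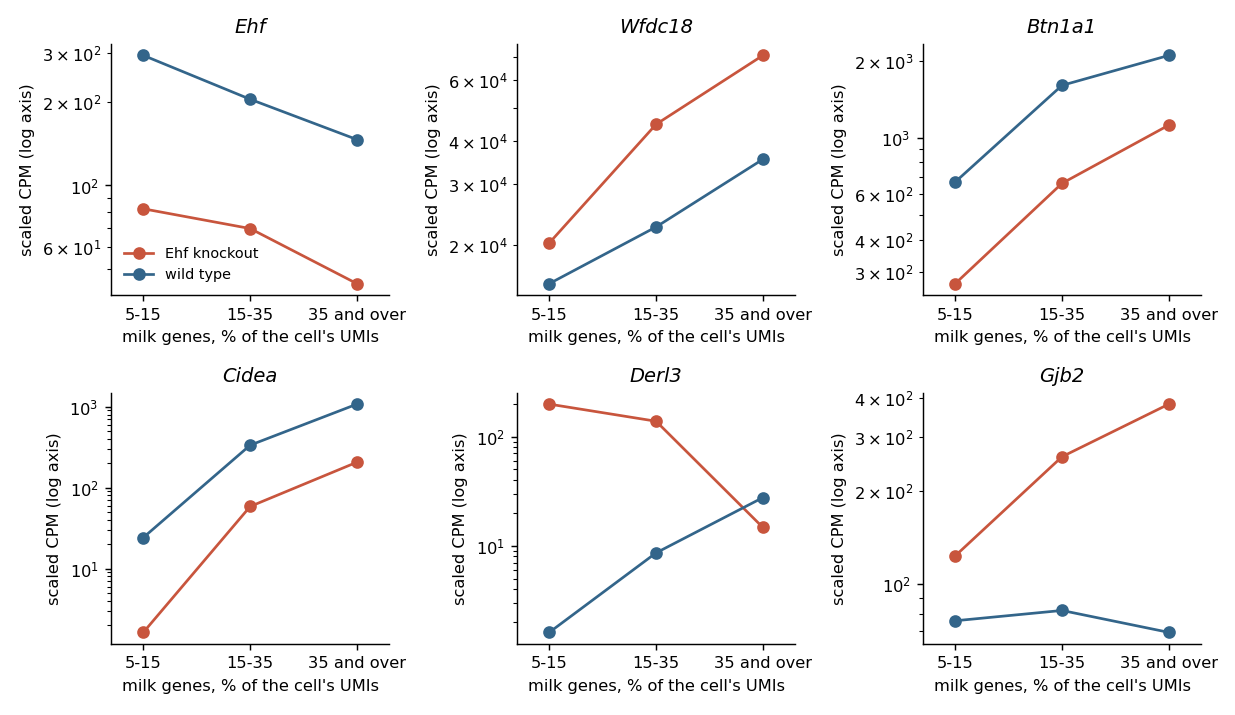
Level in scaled CPM (y, log axes) of Ehf, Wfdc18, Btn1a1, Cidea, Derl3 and Gjb2 summed over non-cycling luminal cells with milk shares of 5-15%, 15-35% and 35% and over (x), for 111, 60 and 8 knockout cells (red) and 120, 777 and 976 wild type cells (blue). Ehf, Btn1a1 and Cidea are below the wild type and Wfdc18 and Gjb2 above it in all 3 classes, while the lines of Derl3 cross, with a single knockout UMI at 35% and over.

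The lists for lactose synthesis, transport and cholesterol synthesis had medians below 0, while those for amino acid supply and oxidative phosphorylation did not. Their counts stand beside 9.02% of all genes called higher and 12% called lower. Of 10 genes of lactose synthesis and sugar supply 0 were called higher and 4 lower (median -0.46, over the alternatives -0.65 to -0.33). B4galt1, the catalytic subunit of lactose synthase, stood at 611 and 1097 scaled CPM (log2 -0.84, -0.999 to -0.693), and the hexokinase Hk2 at 258 and 444 (-0.78). Of 13 genes of calcium, phosphate and metal transport 0 were higher and 7 lower (median -0.59, over the alternatives -0.73 to -0.48). Lowest were the calcium pump Atp2b2 with 4 and 114 UMIs (-1.92, -3.82 to -0.52) and the phosphate carrier Slc34a2 (-1.91, -2.56 to -1.32). By step Atp2b2 held 0, 0, 1 and 3 UMIs in the knockout, against 4, 14, 22 and 74 in the wild type. At 25-30% and 30-35% its log2 ratio was -0.98 (-6.34 to 1.65) and -0.45 (-2.76 to 1.15). Of 13 cholesterol synthesis genes 1 was higher and 6 lower (median -0.47), and the median was 0.28 when the UMIs were thinned before the cells were chosen. Of 10 genes of amino acid supply 2 were higher and 1 lower (median 0.19). The higher ones were the serine synthesis genes Phgdh at 0.84 (0.33 to 1.32) and Psat1 at 0.76 (-0.017 to 1.47), and the lower one was Lao1, an amino acid oxidase gene, at -0.60, which became 0.029 once milk shares were matched. The 35 nuclear genes of oxidative phosphorylation were all within 1.5-fold, with a median of 0.01.

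**Figure D4:**
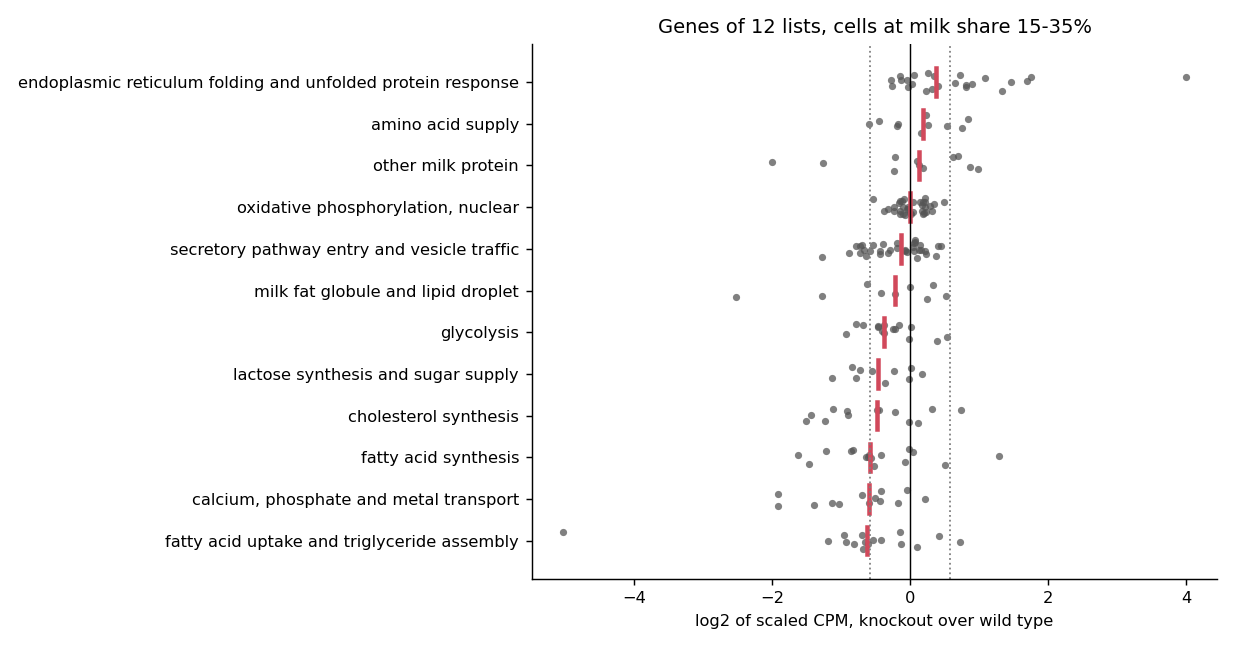
Log2 ratio of scaled CPM, knockout over wild type (x), for each gene with at least 100 UMIs in 12 lists (y; 1 point per gene, spread vertically for legibility), with list medians as red bars and 1.5-fold as dotted lines. The endoplasmic reticulum list reaches to 4.00 (Derl3) with a median of 0.38, the 35 oxidative phosphorylation genes stay between the dotted lines, and lipid, lactose and transport genes lie mostly left of 0.

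The remaining milk proteins were mixed, with 4 of 11 called higher and 2 lower, against 9.02% and 12% of all genes, and a median of 0.13. Wfdc18 (chr11:83709004-83711360) stood at 44733 scaled CPM in the knockout against 22591 in the wild type, a log2 ratio of 0.99 (0.97 to 1.00). Over cells the lowest, median and highest level was 5321, 40352.5 and 96033 in the knockout, against 0, 19350 and 80170 in the wild type. The groups overlapped, and the ratio was 0.97, 1.31, 1.14 and 0.81 over the 4 steps. Wfdc3 at 0.87, the lipocalin Lcn2 at 0.69 and Csn1s2b at 0.62 were also higher. Transferrin (Trf) was at 0.13 and clusterin (Clu) at 0.10.

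Mfge8 and Spp1 were the lower ones. Mfge8, a globule membrane protein that binds phosphatidylserine, stood at 440 and 1756 scaled CPM (log2 -1.996, -2.18 to -1.82), but 1 knockout cell held 42.1% of its UMIs and basal cells express it too (79.5% and 74.0% of cells, thinned 59.2% and 72.8%). Its step ratios were -4.28, -2.28, -0.42 and -1.69. Spp1, osteopontin, was at 2283 and 5478 (-1.26, -1.34 to -1.19), and its step ratios of 1.03, -0.90, 0.08 and -1.35 had no common sign. Matching of milk share brought Spp1 to -0.43.

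The prolactin, Stat5 and Elf5 list gave 4 higher and 3 lower of 17 members, against 9.02% and 12% of all genes (median -0.21). Elf5 was at 444 and 437 scaled CPM (log2 0.02, -0.17 to 0.21) and Stat5a at 86.1 and 77.1 (0.16, -0.29 to 0.58). Ccnd1, cyclin D1, was at 0.86 (0.60 to 1.12), Cebpb, a factor of alveolar development, at 0.74 and Id2 at 0.74. Prlr, the prolactin receptor, was at -0.61 (-1.08 to -0.17). Ccnd1 turned to -0.18 at milk shares of 20-30%, and Prlr to 0.23 when cells were thinned before they were chosen. Of 8 Ets family genes with enough UMIs 1 was called higher, Erf at 1.11 (0.42 to 1.75) on 26 and 91 UMIs. Called lower were 2, Ehf and Etv6 (-0.62), while Elf3 was at 0.41 (-0.19 to 0.97).

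Mucosal defence and inflammatory genes went both ways. In the first list 2 of 11 were called higher and 5 lower, against 9.02% and 12% of all genes (median -0.30). Complement C3 stood at 535 and 224 scaled CPM (log2 1.25, 1.07 to 1.43), while lactoferrin (Ltf) was at 107 and 290 (-1.44, -1.82 to -1.08) and surfactant protein D (Sftpd) at -1.95 (-2.70 to -1.30). Of 10 acute phase and inflammatory genes 4 were higher and 4 lower (median 0.09). The chemokines Cxcl2, with 62 and 3265 UMIs, and Cxcl1 were at -2.80 (-3.19 to -2.44) and -1.70 (-2.05 to -1.36). The immune markers summed to 39.0 in the knockout against 142, but most of that sum was S100a8, at 35.7 against 91.4, which is also 1 of the 5 lower mucosal defence genes. Their part in these values was not tested.

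For Saa1 and Orm1 most knockout UMIs came from a single cell. Of the 258 Saa1 UMIs of the knockout 97.3% lay in 1 cell, and of the 45 Orm1 UMIs 75.6%. Their log2 ratios of 1.80 and 2.43 became -3.59 and 0.22 when cells over 30000 UMIs (3 knockout, 10 wild type) were left out. Saa1 was found in 6.67% of the knockout cells and in 15.6% of those of the wild type (thinned 1.72% and 7.07%; basal cells 1.16% and 1.62%, thinned 0.742% and 1.13%).

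Among the 12 highest genes by the naming rule were several of no fixed list. Gjb2, which encodes the gap junction protein connexin 26, stood at 258 and 81.9 scaled CPM (log2 1.66, 1.38 to 1.93). Its step ratios were 1.91, 1.30, 1.12 and 1.79, and it was found in 68.3% and 32.0% of cells (thinned 27.6% and 11.3%; basal cells 0.895% and 1.40%, thinned 0.334% and 0.963%). Id1, an inhibitor of helix-loop-helix factors, was at 2.31 (1.73 to 2.88), the ubiquitin-like Ubd at 1.76, the carbonyl reductase gene Cbr2 at 1.79, Sdhaf1, an assembly factor of succinate dehydrogenase, at 1.75, and Iho1 at 1.74. Lrrc17 was at 2.52, with 40.0% of its knockout UMIs in 1 cell, and at 0.63 when cells with any cell cycle UMI were left out. n-R5s100, a ribosomal RNA gene, was at 1.98.

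Among the 12 lowest, besides those above, Igfbp5, which binds insulin-like growth factors, stood at 156 and 553 scaled CPM (log2 -1.83, -2.13 to -1.53), although 54.2% of its knockout UMIs lay in 1 cell and it is a basal gene as well (91.9% and 73.8% of basal cells, thinned 84.3% and 71.4%). Edn1, endothelin 1, was at -2.03 (-2.64 to -1.48), the kinase gene Sgk1 at -1.86, trichohyalin (Tchh) at -2.14 and the ribosomal RNA gene Rn18s at -1.48.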

How the data were processed

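Single-cell RNA libraries of sorted mammary cells, 1 per genotype, were read from the deposited matrices of unnormalized UMI counts, whole numbers for each gene and barcode. GRCm38 (mm10) and Seurat 4.0.4 are named in the submitters' processing notes. The aligner, counter and barcode filter were not given in the sources used here. The cells, gene lists and rules were chosen with earlier results of these data known.

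UMIs were summed over the cells of each milk share class. Levels are CPM over the UMIs outside the 7 milk genes, with the knockout scaled to a median log2 ratio of 0 over the genes with at least 100 UMIs; this shift was -0.053. With 1 library per genotype no test was run and p-values were not computed. Ratios carry exact conditional, levels exact Poisson and shares exact Clopper-Pearson intervals at 95%, for counting error only. A called gene differed at least 1.5-fold, a rule of size. The named genes were the 12 highest and 12 lowest by the interval bound nearest 0, among genes with 100 or more UMIs, 50 or more scaled CPM in either library and the same direction under 3 scalings, leaving out the milk genes of the rule, predicted, mitochondrial, ribosomal protein, haemoglobin and immunoglobulin genes. The rule also took Ehf, the milk genes, the markers and up to 4 members of each of 40 lists; not all of these are reported here. Symbols were missing for 1314 of 27179 features, which held 1.58% of knockout UMIs and 1.47% of wild type UMIs in the window.

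For shares of cells with a UMI, each cell was thinned to 2000 UMIs (seed 1). Doublets were scored with Scrublet (scanpy 1.11.5, expected rate 6%), with a wild type threshold of 0.379, and kept outside 1 alternative. Free RNA was put at no more than 9.54% of knockout UMIs and 22.0% of wild type UMIs, from the milk share of the summed UMIs of basal cells. Promoters and gene coordinates are RefSeq's for GRCm38.p6. Simulated counts were used to test the step that computes levels. Python 3.11.15, numpy 2.4.6, scipy 1.17.1, pandas 2.3.3 and matplotlib 3.10.9 were used. Alternatives covered scaling, gene minimum, weight of cells, matched milk share, a window of 20-30%, cell filter, doublets, basal and cell cycle UMIs, thinning and free RNA, and cells over 30000 UMIs left out was added after seeing the data.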

Additional observations from a re-analysis of the deposited data

How the results depend on the processing

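No paired analysis was possible because there was 1 library per genotype. The counts and the knockout intervals are limited by 60 cells, and 22 of the 462 alternative values of counts, shares and list medians moved. A count moved if it changed more than 1.5-fold, and a share of cells if it left its interval. A list median moved only if it left the range between the medians of its members' interval bounds. That range is wide, as with -0.89 to -0.11 for fatty acid synthesis. Of values for single genes and parts of the milk sum, 284 moved, 11 reversed and 1671 did neither. Genes called higher and lower numbered 1365 and 1536 of 9031 at a minimum of 20 UMIs and 145 and 197 of 2059 at 300, since other numbers of genes were tested. Thinning before the choice of cells left 199 and 248 of 1635, with 45.4% of wild type cells in the window and list medians of 0.28 for cholesterol synthesis, -0.83 for acute phase genes, -0.68 for Ets factors, -0.88 for claudins and 0.26 for keratins. A window of 20-30% gave 351 genes lower, 4.88% of the knockout cells and 18.9% of those of the wild type, and a median of 0.58 for other milk proteins, which was 0.56 at matched milk shares. The acute phase median was -0.40 with equal weight per cell, -0.21 with basal UMIs limited, -1.31 without cells holding a cell cycle UMI and -1.36 without cells over 30000 UMIs. The endoplasmic reticulum median was 0.70 without cells holding a cell cycle UMI. The called genes were 42.9% higher, and 50.1% and 35.9% under the other scalings. Among single genes the log2 of Saa1 reversed to -0.23 with equal weight, -3.05 without cell cycle UMIs, -3.59 without the largest cells and -0.75 when thinned; Mcm6 to 1.31 with equal weight; Lao1 to 0.029 at matched milk share; Slc35a2 to 0.057, Ccnd1 to -0.18 and Dkc1 to -0.12 at 20-30%, where 1 further gene, not reported here, also reversed; and Prlr to 0.23 when thinned. Where no construction of the alternative shows it, the cause was not tested. Over all alternatives the log2 ratio ran from -1.90 to -1.51 for Ehf, from 3.83 to 4.54 for Derl3 (not measured when thinned), from 0.86 to 1.27 for Wfdc18, from 1.07 to 1.77 for Gjb2 and from -1.61 to -0.78 for Btn1a1, and the Glycam1 share from 1.34 to 1.95% of milk UMIs in the knockout and from 11.3 to 13.3% in the wild type.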
